A study of Rattus norvegicus with 60 samples.

Results

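The transcripts of 9 genes that mark the cells of blood vessels were followed in the CA1 area of the rat hippocampus. Of these, 6 mark endothelial cells (Slc2a1, Cldn5, Pecam1, Flt1, Kdr and Tek) and 3 mark mural cells, that is pericytes and smooth muscle (Pdgfrb, Rgs5 and Vtn). They are the entries of the deposited RNA table whose name equals 1 of these symbols, 9 of its 22865 genes, and all 9 were among the 13153 genes tested. All animals were Sprague-Dawley rats aged 90 to 120 d, with no transgene or drug named in the labels. RNA groups were threat 24 h (n = 6), place 24 h (n = 5), threat 1 h (n = 8), place 1 h (n = 6) and naive (n = 9), where the hours count from contextual threat recognition training. What the place animals experienced is not described in the labels, and naive RNA has no time. DNA captured with a methyl-binding domain protein was sequenced at each of 24 h and 1 h in 3 threat, 4 place and 3 naive libraries, beside 3 uncaptured input libraries. Nowhere do the labels state that replicates were separate animals, so every p-value measures the spread between these libraries, which may be technical.

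Endothelial cells of the brain form the blood-brain barrier: tight junctions, to which the claudin Cldn5 belongs, seal the gaps between them, and the glucose transporter Slc2a1 (GLUT1) carries glucose across. Vascular endothelial growth factors act on these cells through the receptor kinases Kdr (VEGFR2), the main signalling receptor, and Flt1 (VEGFR1), which also binds the ligand away from Kdr. Angiopoietins act through the receptor Tek (Tie2), and Pecam1 (CD31) is an adhesion molecule of endothelial contacts. Pericytes are recruited to capillaries by platelet-derived growth factor B, released by endothelium and sensed by their receptor Pdgfrb. Rgs5, a regulator of G protein signalling, and Vtn, the matrix protein vitronectin, are widely used pericyte markers in the brain.

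The starts of these genes differed in how many CG dinucleotides they held, which is the site that the methyl-binding domain reads when it is methylated. RefSeq sequence (build GRCr8) from 250 bases before to 50 after the gene start was at hand for Slc2a1, Cldn5, Flt1, Kdr, Rgs5 and Vtn. Flt1 held 31 CG dinucleotides, Slc2a1 25, Kdr 18, Cldn5 11, Rgs5 7 and Vtn 6, against a median of 7 and quartiles of 3 and 19 in 33469 promoters of the same length, of which 94.5% held at least 1. Both ends of this range are shown because capture of methylated DNA at the gene starts, described last, differed between them. Each is written 5′ to 3′ on the strand of its gene with every CG in capitals, and lies at chr12:12333180-12333479 (plus strand), chr5:138002272-138002571 (plus), chr13:84380827-84381126 (plus) and chr10:63892532-63892831 (plus).
Flt1: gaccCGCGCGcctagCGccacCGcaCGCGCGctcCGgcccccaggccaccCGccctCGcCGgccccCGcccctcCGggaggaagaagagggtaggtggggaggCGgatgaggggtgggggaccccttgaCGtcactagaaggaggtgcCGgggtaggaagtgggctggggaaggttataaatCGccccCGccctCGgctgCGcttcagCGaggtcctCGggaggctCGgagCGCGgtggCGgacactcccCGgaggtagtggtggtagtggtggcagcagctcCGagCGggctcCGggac
Slc2a1: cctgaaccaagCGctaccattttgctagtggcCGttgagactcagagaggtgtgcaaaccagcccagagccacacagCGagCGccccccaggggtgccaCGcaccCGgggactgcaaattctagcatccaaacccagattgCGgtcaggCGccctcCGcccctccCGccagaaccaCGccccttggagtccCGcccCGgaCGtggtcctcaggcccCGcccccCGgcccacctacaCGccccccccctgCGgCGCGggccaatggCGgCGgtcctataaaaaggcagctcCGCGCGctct
Rgs5: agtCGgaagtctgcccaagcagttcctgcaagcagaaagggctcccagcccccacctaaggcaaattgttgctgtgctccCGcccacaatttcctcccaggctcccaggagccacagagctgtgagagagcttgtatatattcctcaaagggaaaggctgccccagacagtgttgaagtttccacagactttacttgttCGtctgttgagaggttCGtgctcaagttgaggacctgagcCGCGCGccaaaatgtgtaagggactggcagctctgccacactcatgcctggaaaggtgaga
Vtn: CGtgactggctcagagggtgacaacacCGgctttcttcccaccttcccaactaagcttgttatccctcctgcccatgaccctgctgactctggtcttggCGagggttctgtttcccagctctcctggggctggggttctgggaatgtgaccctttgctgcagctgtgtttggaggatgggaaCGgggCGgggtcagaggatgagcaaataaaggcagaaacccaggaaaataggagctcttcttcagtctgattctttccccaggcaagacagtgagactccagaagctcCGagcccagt
The longest run without a CG was 32 bases in Flt1 and 43 in Slc2a1, against 117 bases in Rgs5 and 101 in Vtn.

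In the build of the deposited tables, rn5, the endothelial genes lie at chr5:141964114-141992634 (Slc2a1, plus strand), chr11:89458886-89459542 (Cldn5, minus), chr10:94598952-94632587 (Pecam1, minus), chr12:11155072-11322925 (Flt1, plus), chr14:34557361-34618109 (Kdr, plus) and chr5:117672484-117799345 (Tek, plus). The mural genes lie at chr18:55596758-55637692 (Pdgfrb, plus), chr13:92595346-92631357 (Rgs5, plus) and chr10:65872582-65875673 (Vtn, minus). The Cldn5 model of the table spans 657 nt, against 1427 nt in RefSeq GRCr8, so reads outside the modelled stretch could not enter its value. Pecam1 spans 33636 nt in the table and 61740 nt in RefSeq, and Kdr 60749 and 43174 nt, so for these 3 the start of the table's model may not be the gene start of RefSeq. Vtn is on the minus strand in rn5 and on the plus strand in GRCr8. All 16 neighbours within 250 kb that matched by symbol stand in reversed order between the builds, so the whole stretch is turned round. Flt1 overlaps Pan3 on the opposite strand. Libraries were directional per the labels, but whether counting used the strand is not stated.

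Relative depth of the RNA libraries, read from the steps of low values, ran from 0.838 to 1.215 of the median library. Transcripts of the choroid plexus, the secretory lining of the ventricles, set 2 libraries apart. Ttr, its most abundant transcript, stood at 6226 FPKM in threat 1 h replicate 4 and 3700 FPKM in replicate 7, against 7.14 to 164 FPKM in the other 6 threat 1 h libraries and 1.79 to 255 FPKM elsewhere. Calls that use threat 1 h are given with and without these 2 libraries where a call changed, for the 9 members and the vascular gene lists.

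All 9 transcripts were detected in each of the 34 RNA libraries, the lowest value being 1.11 FPKM for Kdr in threat 24 h. FPKM is a read count scaled by transcript length and library total, so levels can be set side by side between genes as far as the gene models hold. The models of Cldn5, Pecam1 and Kdr differ in span from RefSeq, and the effect on their levels was not tested. Cldn5 averaged 47.6 FPKM over the 34 libraries and Slc2a1 41.4 FPKM, which placed them above 91.5% and 89.9% of the tested genes. Rgs5 followed at 27.02 FPKM, above 83.2% of them. A wide step separated these 3 from the rest. Flt1 averaged 7.45 FPKM, Vtn 6.47, Pecam1 5.91, Tek 4.53 and Pdgfrb 3.73 FPKM, and Kdr was lowest at 1.67 FPKM. This order of the means was the same in 4 of the 5 groups, with Pecam1 above Vtn in threat 24 h only. Rgs5 stood apart from Flt1 and Pdgfrb from Kdr, with no shared values, in all 5 groups, whereas the ranges of Flt1 and its lower neighbour, of Vtn and Pecam1 and of Tek and Pdgfrb overlapped in all 5.

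**Figure D1:**
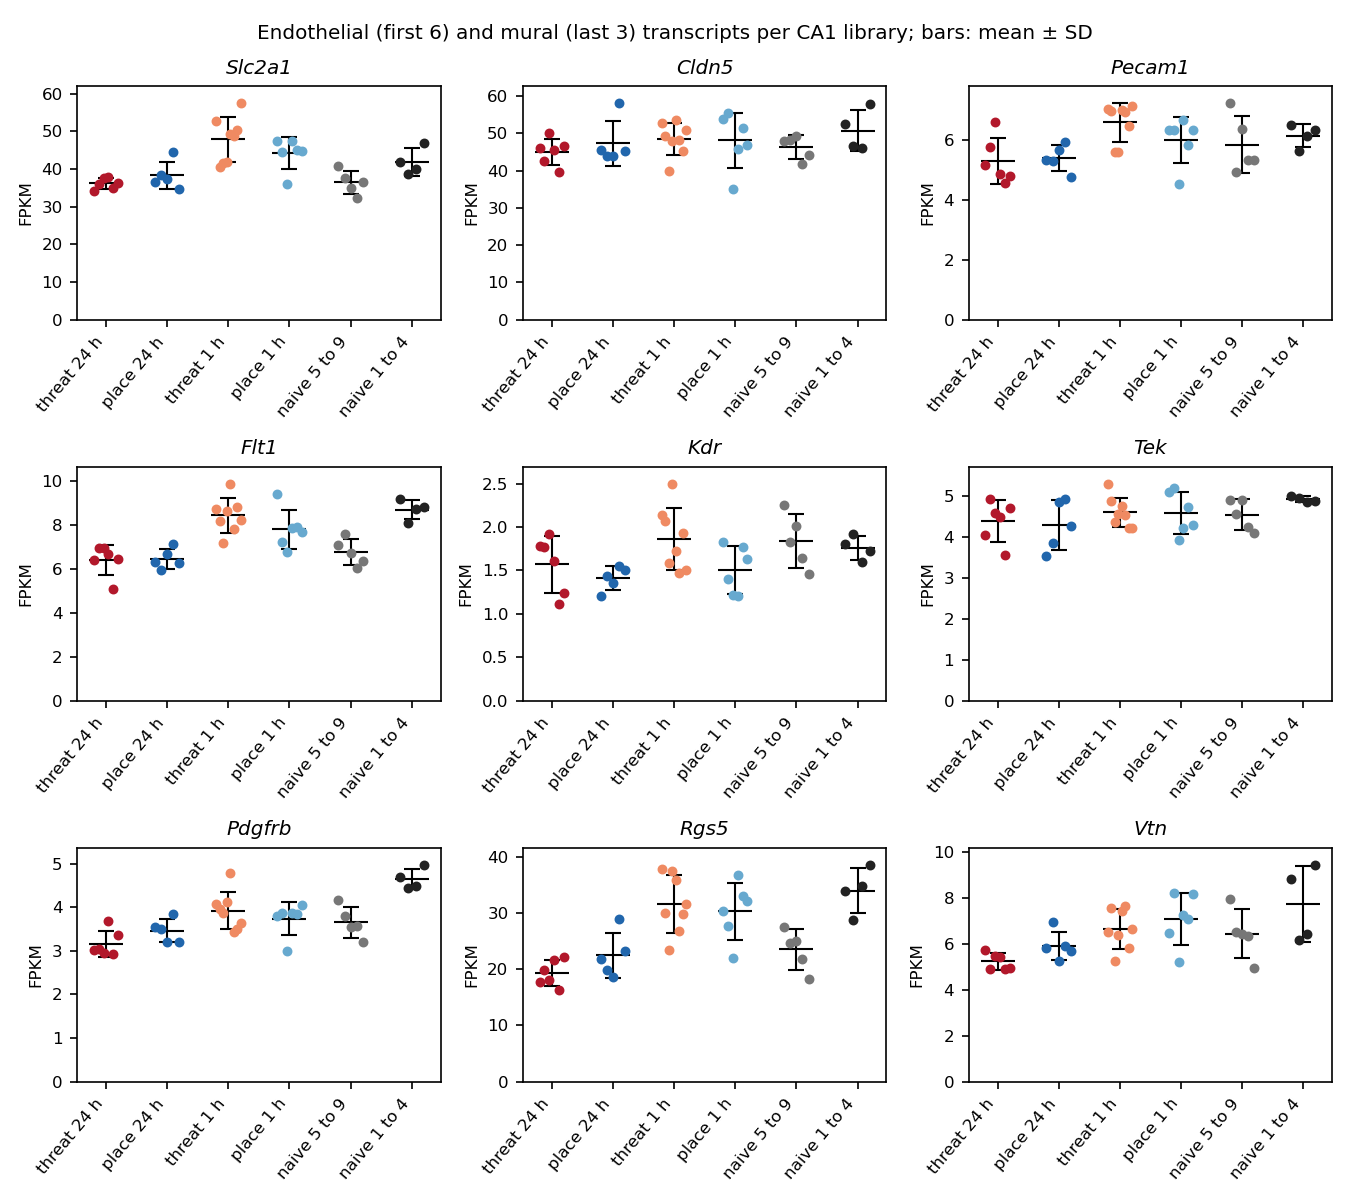
FPKM of each transcript (vertical axis, from 0) in every RNA library, one point per library, by group along the horizontal axis with naive split into replicates 5 to 9 and 1 to 4; lines mark the mean and bars the SD. Rgs5 and Pdgfrb have their highest group means in naive 1 to 4 (34.1 and 4.65 FPKM) and their lowest in threat 24 h (19.3 and 3.17 FPKM).

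The comparison of threat 24 h with naive asks what differed a day after training. All 3 mural transcripts fell, and no endothelial transcript passed the test. With naive replicates 5 to 9 alone as naive, none of the 3 passed, as described with the naive sets further on. Pdgfrb ran from 2.94 to 3.69 FPKM with a median of 3.03 in threat 24 h, against 3.21 to 4.96 with a median of 4.17 in naive. Of the 6 threat 24 h libraries 4 lay below the lowest naive library, and the groups overlapped. The fall was -0.28 ± 0.07 (SE) on the log2(FPKM + 1) scale, the scale of every fold change of RNA here, with a limma adjusted p of 0.00785.

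Rgs5 ran from 16.3 to 22.2 FPKM with a median of 19.0 in threat 24 h, and from 18.3 to 38.6 with a median of 27.7 in naive. All 6 threat 24 h libraries lay below the naive median and 3 below every naive library. It fell by 0.50 ± 0.13, to 0.706 of the naive level of FPKM + 1 (adjusted p = 0.0124). Vtn ran from 4.92 to 5.73 FPKM with a median of 5.17 in threat 24 h, against 4.93 to 9.43 with a median of 6.45 in naive. Here too all 6 lay below the naive median, 3 of them below the lowest naive library, and the fall was -0.34 ± 0.10 (adjusted p = 0.0201). Without threat 24 h replicate 5 the adjusted p of Vtn was 0.0511. In a fit of only these 2 groups Pdgfrb and Vtn missed the threshold (adjusted p = 0.0509 and 0.0650). In bulk tissue, fewer pericytes and less of each transcript per pericyte cannot be told apart.

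These 3 of 9 members compare with 10.1% of all tested genes called in this comparison, and with 5.77% called lower. All 9 folds lay below 0, with a median of -0.15 for the members and 0.01 for all genes. The endothelial folds ran from -0.21 ± 0.08 for Flt1 (adjusted p = 0.0688) and -0.15 ± 0.08 for Pecam1 (0.197) to -0.09 ± 0.06 for Tek (0.387). Slc2a1 stood at -0.09 ± 0.07 and Cldn5 at -0.09 ± 0.08. Flt1 passed without naive replicate 7, 8 or 9 (adjusted p = 0.0488, 0.0260 and 0.0336). Of the 8 tested entries for CA1 pyramidal neurons 0 passed, with a median of 0.39, and their part was not tested. Summed FPKM of the 3 mural members was 24.1 to 30.7 in threat 24 h and 26.4 to 53.0 in naive, while that of the 6 endothelial members was 89.0 to 108 and 91.4 to 127.

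Place 24 h against naive gave no call among the members, with 5.05% of all genes called. The folds nevertheless lay below 0 for all 9, with a median of -0.18, and an unadjusted p under 0.05 was reached by 4 members and by 21.9% of all genes. Rgs5 had 21.8, 19.9, 18.6, 29.02 and 23.3 FPKM in place 24 h, against the naive range of 18.3 to 38.6. Apart from replicate 4 the place 24 h values sat in the lower part of the naive range. The Rgs5 fold was -0.30 ± 0.14 (adjusted p = 0.199), that of Kdr -0.22 ± 0.08 (0.131) and that of Pdgfrb -0.18 ± 0.07 (0.132). Both 24 h comparisons use the same 9 naive libraries. Set directly against place 24 h, threat 24 h had 0 members called by limma and 0 with an unadjusted p under 0.05. Of all genes 0% were called, and 381 had an unadjusted p under 0.05. Rgs5 differed there by -0.21 ± 0.15, Vtn by -0.15 ± 0.11 and Pdgfrb by -0.10 ± 0.08, each with an adjusted p of 1.00.

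More members were called between the times than against naive. In threat, 6 of the 9 members were lower at 24 h than at 1 h, the 3 mural ones together with Slc2a1, Flt1 and Pecam1, where 29.3% of all genes were called and 16.8% called lower. Slc2a1 ran from 34.2 to 37.9 FPKM with a median of 36.1 in threat 24 h, against 40.6 to 57.5 with a median of 49.1 in threat 1 h. Every threat 24 h library lay below every threat 1 h library. The fold was -0.39 ± 0.08 (adjusted p = 0.000288).

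The VEGF receptor Flt1 ran from 5.07 to 6.92 FPKM with a median of 6.56 in threat 24 h, and from 7.18 to 9.84 with a median of 8.41 in threat 1 h. Its groups did not overlap either, and it fell by 0.35 ± 0.08 (adjusted p = 0.00111). Pecam1 had medians of 4.996 FPKM in threat 24 h and 6.94 FPKM in threat 1 h, and threat 24 h replicates 2 and 3, at 5.75 and 6.59, lay inside the threat 1 h range of 5.58 to 7.11. It fell by 0.27 ± 0.08 (adjusted p = 0.00776).

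Among the mural genes, Rgs5 ran from 16.3 to 22.2 FPKM in threat 24 h, against 23.6 to 38.0 with a median of 30.9 in threat 1 h. This was the largest member fold among the 9 comparisons of the 5 groups, -0.68 ± 0.13 (adjusted p = 0.000285). It came to 0.624 of the threat 1 h level of FPKM + 1, again with no overlap. Pdgfrb had a highest value of 3.69 FPKM in threat 24 h and a lowest of 3.44 FPKM in threat 1 h, so that 5 of 6 threat 24 h libraries lay below all threat 1 h libraries. It fell by 0.24 ± 0.07 (adjusted p = 0.0104). Vtn fell by 0.29 ± 0.10 (adjusted p = 0.0242), with medians of 5.17 FPKM in threat 24 h and 6.59 FPKM in threat 1 h. Slc2a1, Flt1 and Rgs5 are the 3 members whose groups did not overlap, as in 10.9% of all genes.

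The same 6 members were called without threat 1 h replicates 4 and 7, with 22.5% of all genes called, where Slc2a1 stood at -0.40 ± 0.08 and Rgs5 at -0.65 ± 0.14. Cldn5 (-0.10 ± 0.08), Kdr (-0.16 ± 0.08) and Tek (-0.06 ± 0.06) did not pass in the full comparison, with adjusted p-values of 0.370, 0.143 and 0.523. Under quantile normalization Pdgfrb and Vtn missed the threshold (adjusted p = 0.0539 and 0.0687), and so did Vtn without threat 24 h replicate 5 (0.0506). Of 4 tested choroid plexus markers none passed in the full comparison, with a list median of -1.32 and summed FPKM of 5.54 to 78.3 in threat 24 h and 7.92 to 6510 in threat 1 h. Of 8 tested entries for CA1 pyramidal neurons 2 rose, Nov by 1.09 and Man1a1 by 0.60, with a list median of 0.38 and summed FPKM of 316 to 483 in threat 24 h and 192 to 373 in threat 1 h. Their part in the vascular result was not tested.

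Within place, no member passed between 24 h and 1 h by limma and 13.3% of all genes were called. An unadjusted p under 0.05 was reached by 3 of the 9 members and by 28.2% of all genes. All 9 folds were again below 0, with a median of -0.12 against 0.01 for all genes. Flt1 had 6.29, 5.94, 6.68, 7.10 and 6.24 FPKM in place 24 h, and 6.77 to 9.38 with a median of 7.75 in place 1 h. Place 24 h replicate 4 alone reached into the place 1 h range, and the fold was -0.23 ± 0.09 (adjusted p = 0.0688). Rgs5 differed by -0.41 ± 0.15 (0.0590) and Slc2a1 by -0.20 ± 0.08 (0.109). Without place 1 h replicate 3, the lowest place 1 h library for every member but Kdr, Slc2a1, Flt1 and Rgs5 passed (adjusted p = 0.0298, 0.0381 and 0.0206), and without place 24 h replicate 4 Slc2a1 and Rgs5 did (0.0469 and 0.0275).

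Blood markers moved with this comparison: all 4 tested globin transcripts, near-identical copies that may share reads, rose by 0.75 to 0.79, and the summed FPKM of blood markers was 193 to 554 in place 24 h and 140 to 235 in place 1 h. Whether they bear on the members was not tested. The difference between the time effects of threat and place, the interaction, was called by limma for no member and for 0% of all genes, with an unadjusted p under 0.05 for 0 members and 360 genes. The member values ran from -0.27 ± 0.20 for Rgs5 to 0.02 ± 0.10 for Tek. The calls in threat and their absence in place therefore do not show that the training groups differed.

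**Figure D2:**
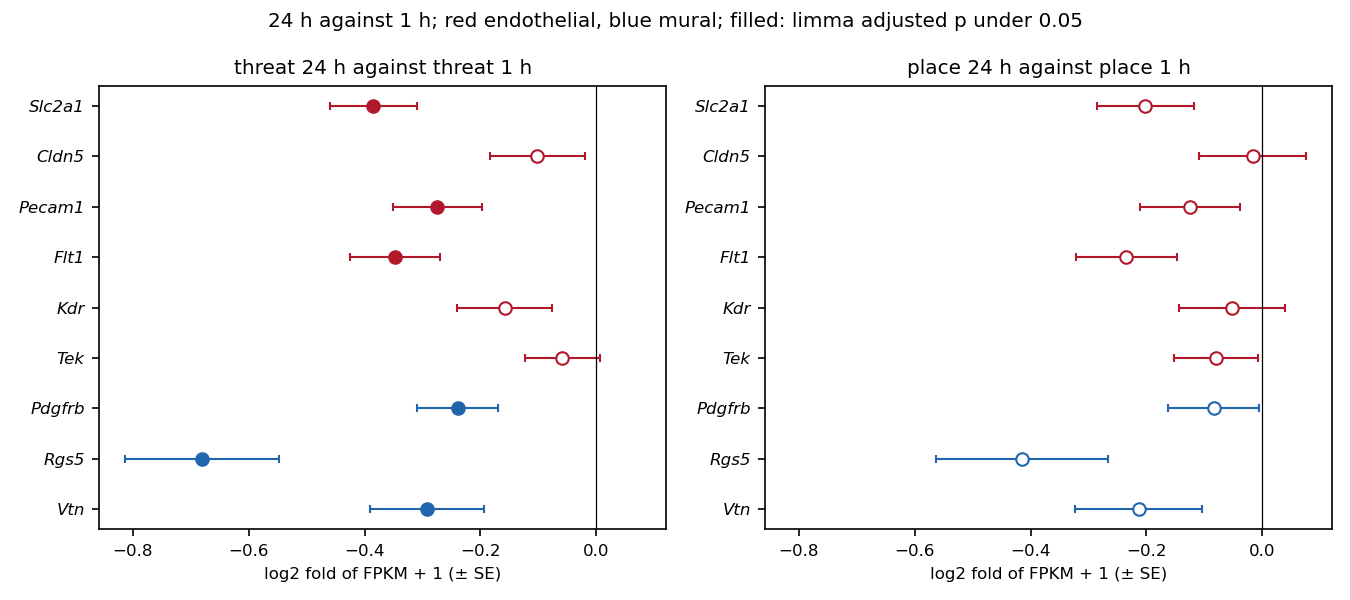
Log2 fold of FPKM + 1 with its SE (horizontal axis) for each member, 24 h against 1 h, in threat (left) and place (right); red marks endothelial and blue mural genes, and filled symbols passed a limma adjusted p of 0.05. All 9 points lie left of 0 in both panels, and 6 are filled in threat and 0 in place.

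At 1 h, Slc2a1 was the single member that differed from naive, in threat, where 0.928% of all genes were called. It ran from 40.6 to 57.5 FPKM with a median of 49.1 in threat 1 h, against 32.4 to 47.05 with a median of 38.6 in naive. Of the 8 threat 1 h libraries 5 lay above the highest naive library and none below the naive median. The rise was 0.29 ± 0.07 (adjusted p = 0.0286). The call did not hold without threat 1 h replicates 4 and 7 (0.31 ± 0.07, adjusted p = 0.0678, 0.228% of all genes called), nor without any 1 of threat 1 h replicates 1, 5, 7 and 8 and naive replicates 6, 7, 8 and 9 (0.0521 to 0.0770). The other 8 folds ran from -0.05 ± 0.09 for Vtn to 0.18 ± 0.12 for Rgs5.

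In place 1 h no member was called against naive by limma, with 0.129% of all genes called, and 2 of the 9 had an unadjusted p under 0.05, as had 9.76% of all genes. Slc2a1 ran from 35.98 to 47.45 FPKM with a median of 45.01 there, and its fold was 0.18 ± 0.07 (adjusted p = 0.379). Kdr had 3 of 6 place 1 h libraries below the lowest naive library, at 1.21 to 1.83 FPKM against 1.45 to 2.26 FPKM, and a fold of -0.16 ± 0.08 (adjusted p = 0.510). Between threat 1 h and place 1 h 0% of all genes were called, with an unadjusted p under 0.05 for 560 genes and 1 member, Kdr. Without threat 1 h replicates 4 and 7 the Kdr difference was smaller, 0.13 ± 0.08. The member differences ran from -0.07 ± 0.10 for Vtn to 0.19 ± 0.08 for Kdr, each with an adjusted p of 1.00.

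The naive libraries were themselves split. Replicates 5 to 9 differed from replicates 1 to 4, a division by number to which the labels attach no batch or time, at 19.0% of all tested genes. Flt1, Pdgfrb and Rgs5 fell in replicates 5 to 9, and no member rose. Rgs5 had 27.7, 24.8, 25.2, 21.9 and 18.3 FPKM in replicates 5 to 9, and 33.997, 28.9, 34.8 and 38.6 FPKM in replicates 1 to 4. No value was shared, and the fold was -0.52 ± 0.14 (adjusted p = 0.00778).

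Pdgfrb had 4.17, 3.80, 3.54, 3.57 and 3.21 FPKM in replicates 5 to 9, and 4.69, 4.44, 4.50 and 4.96 FPKM in replicates 1 to 4. Flt1 had 7.06, 7.58, 6.73, 6.04 and 6.35 FPKM in replicates 5 to 9, against 9.15, 8.08, 8.71 and 8.78 FPKM in replicates 1 to 4. Both split without overlap, as in 16.8% of all genes. Pdgfrb fell by 0.28 ± 0.07 (adjusted p = 0.00601) and Flt1 by 0.32 ± 0.08 (0.00369). Slc2a1 (-0.19 ± 0.09, adjusted p = 0.121) and Vtn (-0.22 ± 0.12, 0.192) did not pass. Kdr alone had a fold above 0, 0.03 ± 0.10. Relative depth was 0.997 to 1.215 in replicates 5 to 9 and 0.936 to 1.033 in replicates 1 to 4, and summed blood markers were 245 to 392 and 180 to 286 FPKM. Their part was not tested.

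The calls against naive turned on which of these libraries served as naive. Against replicates 1 to 4, threat 24 h had 4 members lower (29.6% of all genes called), with Pdgfrb at -0.44 ± 0.07, Rgs5 at -0.79 ± 0.13, Vtn at -0.47 ± 0.11 and Flt1 at -0.39 ± 0.08 (adjusted p = 2.21e-05, 4.91e-05, 0.00174 and 0.000287). Against replicates 5 to 9 no member was called in threat 24 h (0.456% of all genes), and the folds of Pdgfrb, Rgs5 and Vtn were -0.16 ± 0.07, -0.27 ± 0.13 and -0.24 ± 0.10 (adjusted p = 0.389, 0.448 and 0.336). Place 24 h likewise had the same 4 members lower against replicates 1 to 4 (23.7% of all genes), with Rgs5 at -0.58 ± 0.14 and an adjusted p of 0.00249, and 0 against replicates 5 to 9 (0.0836%).

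At 1 h the calls ran the other way round. Against naive replicates 5 to 9, threat 1 h had 3 members higher (19.8% of all genes called), namely Slc2a1 by 0.38 ± 0.08, Flt1 by 0.28 ± 0.07 and Rgs5 by 0.41 ± 0.12 (adjusted p = 0.000659, 0.00476 and 0.0157). Place 1 h had Slc2a1 higher, by 0.27 ± 0.08 (adjusted p = 0.0240, 12.7% of all genes). Against replicates 1 to 4 no member was called in threat 1 h (0.220%) or in place 1 h (0.0380%), and Slc2a1 stood at 0.18 ± 0.08 and 0.08 ± 0.09. For Rgs5, the naive 5 to 9 mean of 23.6 ± 3.58 FPKM lay near place 24 h (22.5 ± 4.04) and threat 24 h (19.3 ± 2.33), and the naive 1 to 4 mean of 34.1 ± 3.99 near threat 1 h (31.7 ± 5.18) and place 1 h (30.4 ± 5.09, SD). The comparisons of 24 h with 1 h set no naive library against another group, but naive libraries enter the shared estimate of the spread. Few of all genes separated threat 1 h and place 1 h from naive 1 to 4 (0.220% and 0.0380%). Few likewise separated threat 24 h and place 24 h from naive 5 to 9 (0.456% and 0.0836%). Whether what divides the naive sets also divides the times was not tested. When each fit held no other groups than the pair compared, the same 6 members were called in threat, and in place Flt1 passed (adjusted p = 0.0496).

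**Figure D3:**
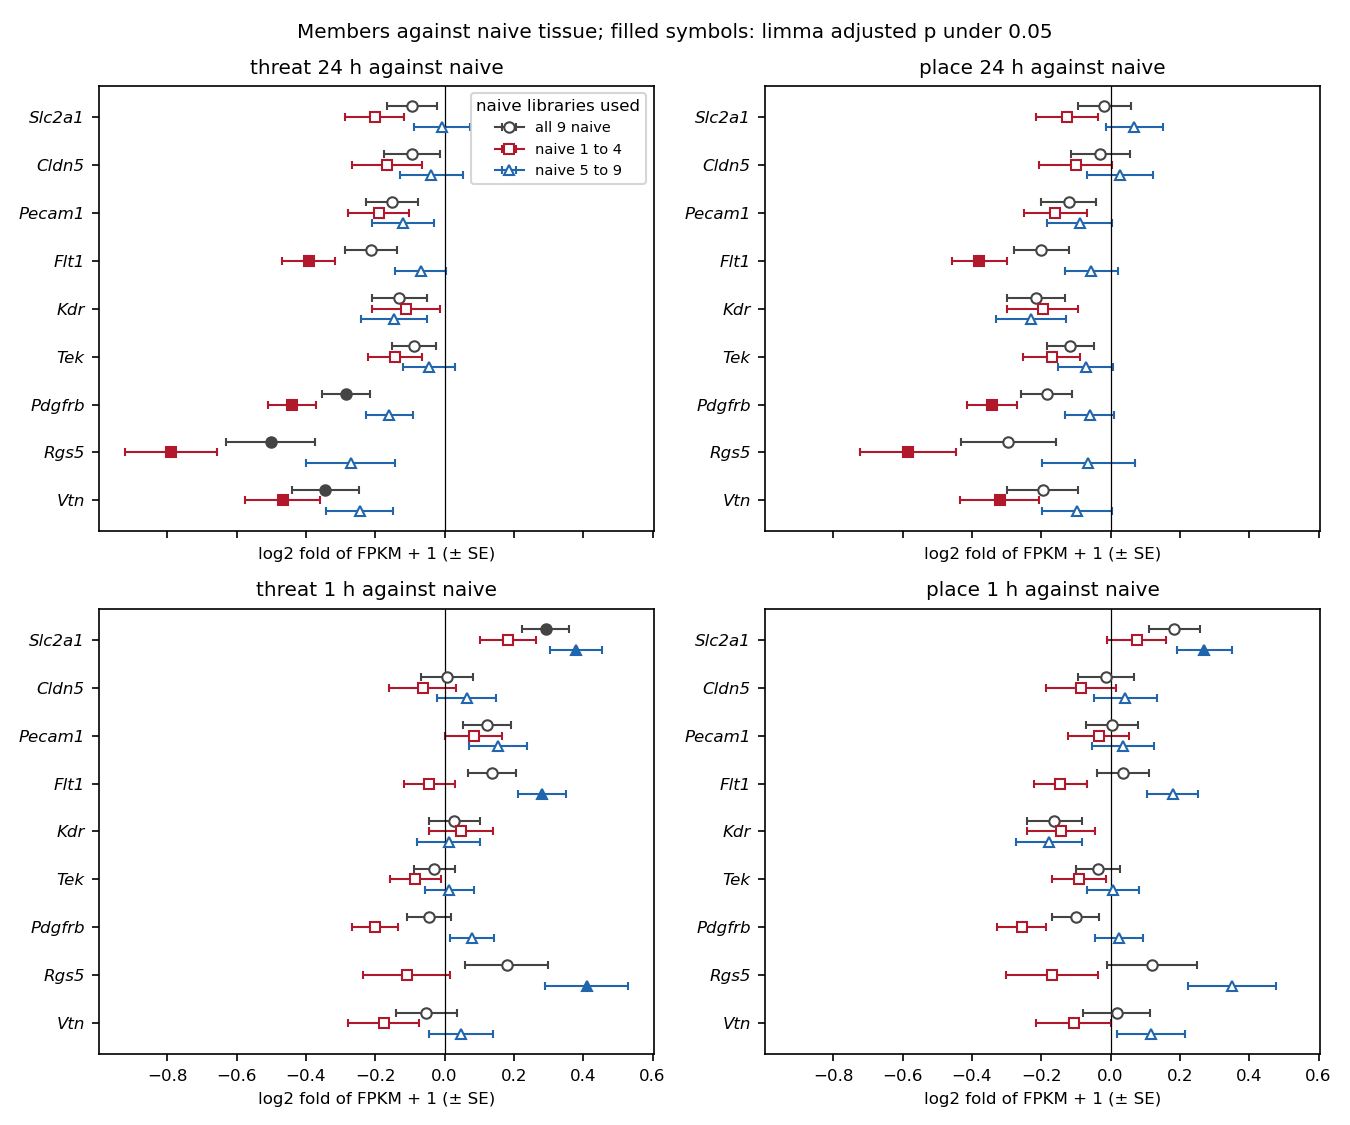
Log2 fold of FPKM + 1 with its SE (horizontal axis) for each member against naive, with all 9 naive libraries (grey circles), replicates 1 to 4 (red squares) or replicates 5 to 9 (blue triangles); filled symbols passed a limma adjusted p of 0.05. For Rgs5 in threat 24 h the fold is -0.79 against replicates 1 to 4 and -0.27 against replicates 5 to 9.

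Other genes of the same cells and pathways were read from 8 lists, with 97 further genes tested. In bulk tissue, the cells in which these transcripts changed cannot be told. In threat 24 h against threat 1 h, 2 of the 97 rose and 40 fell (29.3% of all genes called, 16.8% called lower). The median fold was -0.15, against -0.01 for all genes. Without threat 1 h replicates 4 and 7, 32 of these 42 were still called (22.5% of all genes), and of the genes named here Zic1, Pdgfc and Notch3 were not (adjusted p = 0.0759, 0.0567 and 0.0575). In the basement membrane, the matrix that endothelium and pericytes share, 8 of 12 genes fell, among them the collagen IV chains Col4a1 (-0.61 ± 0.07) and Col4a2 (-0.80 ± 0.12), the heparan sulfate proteoglycan agrin Agrn (-0.71 ± 0.10) and the laminin chain Lamc1 (-0.25 ± 0.05). Of 13 further mural genes 6 fell, among them both subunits of the pericyte potassium channel, Kcnj8 (-0.30 ± 0.07) and Abcc9 (-0.42 ± 0.08), and Myl9, a myosin light chain of smooth muscle (-0.41 ± 0.10). Zic1, a transcription factor, also fell (-0.79 ± 0.28).

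Of 19 tested entries for further endothelial identity genes, with Cd34 counted more than once, 7 fell. Of all genes 29.3% were called and 16.8% called lower. Eng, a coreceptor for transforming growth factor beta, stood at -0.39 ± 0.08. The adhesion molecules Esam and Icam2 stood at -0.33 ± 0.07 and -0.25 ± 0.07, and VE-cadherin Cdh5 at -0.28 ± 0.08. Of 19 junction and transport genes 6 fell, among them Lsr of tricellular junctions (-0.56 ± 0.09), the amino acid transporter Slc7a5 (-0.24 ± 0.06), the efflux pump Abcc4 (-0.25 ± 0.07) and the thyroid hormone transporter Slco1c1 (-0.23 ± 0.07). Among 6 tested ligands and coreceptors of the VEGF and angiopoietin families 3 fell: Vegfa, the ligand of Kdr and Flt1, by 0.52 ± 0.09, Vegfb, a ligand of Flt1, by 0.22 ± 0.05, and Angptl4 by 0.40 ± 0.10.

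Of 5 genes of the PDGF family 1 rose, Pdgfc (0.25 ± 0.09), and 1 fell, Pdgfa (-0.27 ± 0.07). The shares called in each of the lists are to be read against the 29.3% of all genes called and the 16.8% called lower. Of 11 Notch genes 4 fell, the ligand Jag2 (-0.32 ± 0.06), the receptors Notch4 of endothelium (-0.23 ± 0.07) and Notch3 of mural cells (-0.25 ± 0.09) and the target Hes1 (-0.45 ± 0.11). In the Wnt pathway of the barrier 5 of 14 tested entries fell, with Ndp counted more than once. Those that fell included the receptor Fzd4 (-0.33 ± 0.09), the coreceptors Reck (-0.79 ± 0.14) and Gpr124 (-0.24 ± 0.06) and the transcription factor Lef1 (-0.44 ± 0.10). The ligand Wnt7b rose (0.33 ± 0.10).

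Fewer of these 97 genes were called elsewhere. In threat 24 h against naive 12 fell and none rose (10.1% of all genes called, 5.77% called lower). Of the 12, 4 were of the basement membrane (Agrn -0.54 ± 0.10, Col4a1 -0.34 ± 0.07, Col4a2 -0.55 ± 0.12 and Lamc1 -0.18 ± 0.05). Another 3 were other mural genes (Abcc9 -0.26 ± 0.08, Ndufa4l2 -0.40 ± 0.12 and Kcnj8 -0.22 ± 0.07). Vegfa fell there by 0.37 ± 0.08 and Reck by 0.55 ± 0.14. In place 24 h against naive 3 fell (5.05% of all genes called in either direction): Agrn by 0.55 ± 0.11, Col4a1 by 0.28 ± 0.07 and Col4a2 by 0.46 ± 0.13.

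Within place, 1 gene rose and 13 fell between 24 h and 1 h (13.3% of all genes), led by Col4a2 (-0.65 ± 0.14), Agrn (-0.61 ± 0.12) and Col4a1 (-0.44 ± 0.08). The single riser was Pdgfra (0.25 ± 0.07), a receptor of oligodendrocyte precursors and fibroblasts. At 1 h against naive, Col4a1 alone rose, in threat (0.27, 0.928% of all genes), and was not called without threat 1 h replicates 4 and 7 (0.26, adjusted p = 0.131), and none was called in place. In naive replicates 5 to 9 against 1 to 4, 22 fell and none rose (19.0% of all genes called in either direction). Among the 22 were Vegfa (-0.44), Agrn (-0.56), Col4a1 (-0.27) and the endothelial transcription factor Sox18 (-0.44).

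Within groups, the members varied together from library to library. After the mean of each of the 5 groups was subtracted, Pearson's r over the 34 libraries was above 0 for all 36 member pairs, with a median of 0.516. Of the 36 pairs 28 passed an adjusted p of 0.05 by permutation, for r and likewise for Spearman's rho. Over all 86494128 pairs of tested genes the median r was 0.01, and 4.14% reached 0.516.

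The closest pair was Pdgfrb with Rgs5, both of pericytes (r = 0.822, rho = 0.837, permutation p = 1e-05, the smallest the resampling can give, adjusted p = 0.00014), and r was 0.754 without the 2 libraries farthest from the median of Pdgfrb. Next came Flt1 with Rgs5, an endothelial and a mural gene (r = 0.754, rho = 0.741, adjusted p = 0.00014 and 0.00018). With the naive sets as 2 groups, its r was 0.630, below those of Slc2a1 with Cldn5 (0.673), Cldn5 with Rgs5 (0.656) and Cldn5 with Flt1 (0.648), while Pdgfrb with Rgs5 remained the highest at 0.735. At the other end, Slc2a1 and Kdr were nearly unrelated (r = 0.037, rho = 0.105, adjusted p = 0.84 by permutation), although both are endothelial. Kdr, the lowest of the 9, had its closest partner in Tek (r = 0.512, rho = 0.476, adjusted p = 0.0038 by permutation). Pairs of endothelial genes had a median r of 0.512, pairs of an endothelial with a mural gene 0.482 and the 3 mural pairs 0.614. With the 2 naive sets as separate groups 28 pairs passed for r, 27 of them shared with the 28 above, and 27 for rho, with a median r of 0.492. By r, Flt1 with Vtn no longer passed and Kdr with Rgs5 did (adjusted p = 0.16 and 0.017 by permutation).

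**Figure D4:**
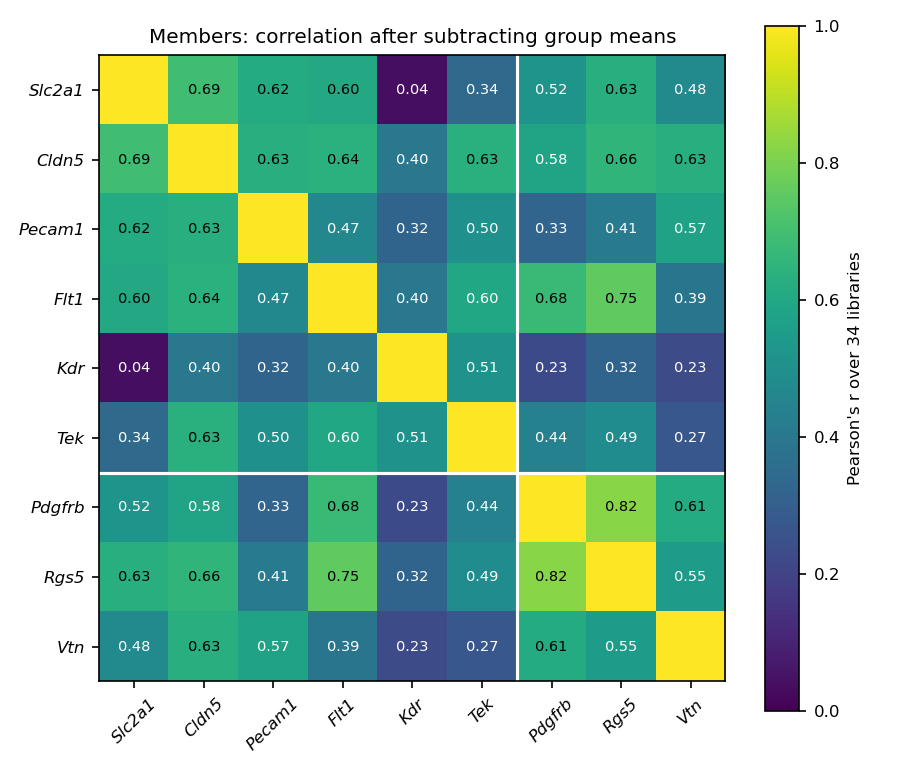
Pearson's r between members over 34 libraries after subtraction of group means (colour scale and number, 0 to 1); white lines part the 6 endothelial from the 3 mural genes. Pdgfrb and Rgs5 share the highest value, 0.82, and Slc2a1 and Kdr the lowest, 0.04.

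Outside the 9, the genes whose log2(FPKM + 1) followed the mean of the standardized members most closely over the 34 libraries were Gpr116 (r = 0.907), Podxl (0.898), Mtss1l (0.887), Dkc1 (0.883) and Nos3 (0.883). Group means were not subtracted here, so differences between groups enter these values.

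Capture of methylated DNA separated the gene starts of the members. At 1 h, the 500 nt bin at the start of Slc2a1 held 2 reads over 10 captured libraries and 34 reads over 3 input libraries, that of Flt1 2 and 27 reads, and that of Kdr 3 and 31 reads. The captured libraries ran from 0 to 0.0489 RPKM (reads scaled by bin length and library total) at Slc2a1, and the inputs from 0.400 to 0.536. No threat, place or naive library held more than 1 captured read at any of these 3 starts. Tek (0 to 0.147 RPKM captured, 0.200 to 0.386 input) and Cldn5 (0.0486 to 0.414 captured, 0.730 to 0.866 input) also lay wholly below input at 1 h.

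Pecam1 and Rgs5 lay wholly above input at 1 h. The start of the Pecam1 model, which may not be the RefSeq start, had a median of 1.02 RPKM in captured libraries (0.489 to 1.48), against 0.289 in input (0.120 to 0.3004). Rgs5 had a median of 0.465 RPKM captured (0.368 to 0.855) and 0.240 input (0.124 to 0.343). Vtn, with 0.251 to 0.782 RPKM captured and 0.120 to 0.343 input, and Pdgfrb, with 0.724 to 1.16 and 0.515 to 0.841, overlapped with input. Flt1 and Slc2a1, whose starts are printed above with 31 and 25 CG dinucleotides, had almost no captured reads. Rgs5 and Vtn, with 7 and 6, had medians above input. Kdr, with 18, and Cldn5, with 11, lay wholly below input. The printed starts were chosen for this difference, and a relation to CG number was not tested. The sequences come from GRCr8 and the bins from rn5, and the 2 were not aligned.

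At 24 h fewer starts lay apart from input. Kdr was the only member wholly below it, with 3 reads over 10 captured libraries and 25 over 3 inputs. Slc2a1 had 4 captured and 11 input reads and Flt1 3 and 8, and their ranges overlapped with input. Their captured means were alike at both times, 0.0114 RPKM at 24 h and 0.0098 at 1 h for Slc2a1, and 0.0093 and 0.0095 for Flt1. Their input means were lower at 24 h (0.105 against 0.469 RPKM, and 0.0812 against 0.377). At Cldn5 captured and input means were both lower at 24 h (0.120 against 0.238, and 0.288 against 0.812). At Tek the captured mean was higher (0.198 against 0.0808). Pecam1 (0.413 to 0.772 RPKM captured, 0.254 to 0.3004 input) and Vtn (0.437 to 0.727 captured, 0.150 to 0.349 input) lay wholly above input. Rgs5 did not, with medians of 0.296 RPKM captured and 0.330 input. The 24 h libraries were deeper (42.2 to 59.5 M reads against 31.4 to 39.9 M at 1 h), but their starts are described by ranges only and were not tested.

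**Figure D5:**
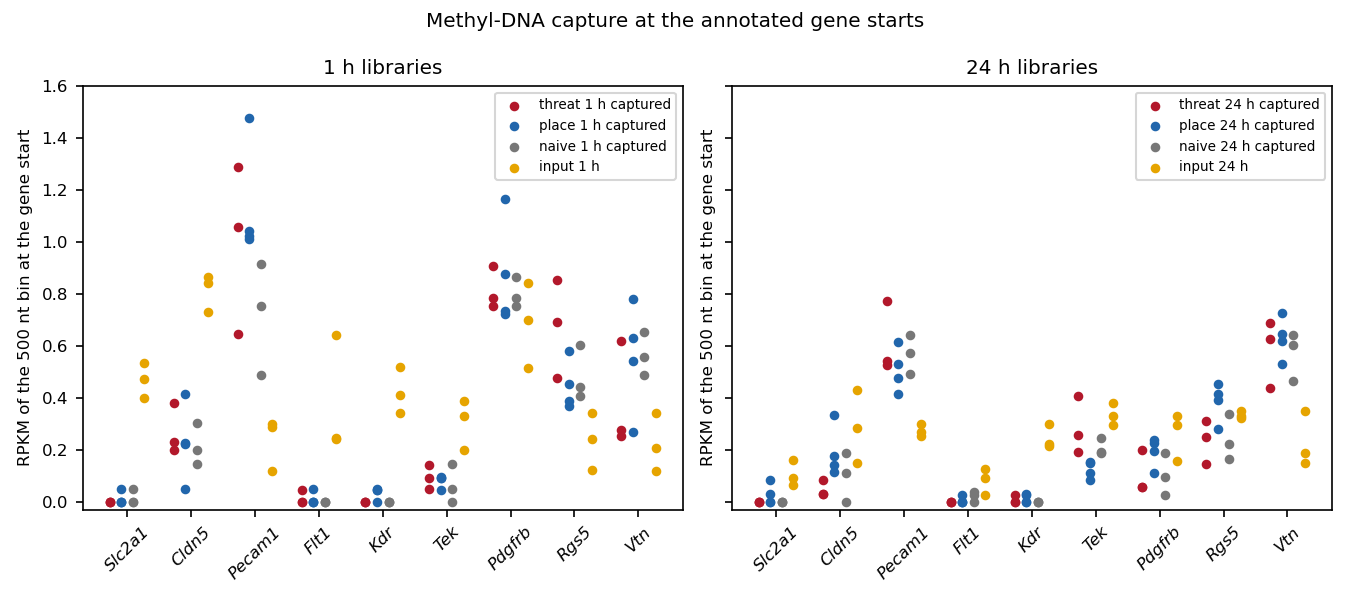
RPKM of the bin at each member's gene start (vertical axis, from 0) in every threat, place and naive captured library and every input library, at 1 h (left) and 24 h (right). At 1 h Slc2a1, Flt1 and Kdr show captured points at or near 0 below the yellow input points, and Pecam1 shows all captured points above them.

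The genes and the 2 kb before their starts held 1043 bins, of which 153 were enriched enough to test at 1 h, 95 of them in Flt1, 18 in Pdgfrb, 12 in Kdr, 11 in Pecam1, 8 in Tek, 4 in Rgs5, 3 in Slc2a1, 2 in Vtn and 0 in Cldn5. At 24 h 21 were tested. By limma, 0 member bins were called in threat 24 h against naive 24 h (0.0105% of all tested bins), place 24 h against naive 24 h (0.00820%), threat 24 h against place 24 h (7.70%), threat 1 h against naive 1 h (0.0160%), place 1 h against naive 1 h (0.00285%) or threat 1 h against place 1 h (0.0174%). In the same order, an unadjusted p under 0.05 was reached by 19.0, 4.76, 38.1, 14.4, 3.92 and 5.88% of the tested member bins and by 23.1, 4.28, 37.1, 15.4, 3.34 and 9.98% of all tested bins. Run on recovered reads, edgeR called 0 member bins in each. Of all tested bins it called, in the same order, 0, 4, 0, 23, 33 and 38. In threat 24 h against place 24 h it thus called 0 of 85335 bins, where limma called 6570. The edgeR fit scaled libraries by normalization factors, whereas limma used RPKM without further scaling. In this comparison the median log2 difference over all tested bins was 0.28 by limma. Whether the scaling accounts for the gap was not tested.

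Member bins tracked all bins in these comparisons. Their median log2(RPKM + 0.25) difference was 0.25 in threat 24 h against place 24 h, where that of all tested bins was 0.28, and 0.23 against 0.23 in threat 24 h against naive 24 h. At 1 h the medians were 0.17 for both in threat against naive and 0.12 and 0.13 in threat against place. By RPKM, the most strongly captured bin lay inside the gene body of Flt1 at 1 h, chr12:11265001-11265500, with 9.11 ± 1.87 RPKM (SD, n = 10) captured against 2.20 RPKM in input. Next by RPKM was a bin inside Pdgfrb, chr18:55618001-55618500, with 4.70 ± 0.96 RPKM captured and 0.512 in input, a wider gap relative to input, and it was also the highest Pdgfrb bin at 24 h (1.14 ± 0.21 and 0.305 RPKM).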

How the data were processed

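RNA values were deposited by the authors as FPKM per gene, and methyl-DNA capture as a signal per bin of 500 nt, in RPKM. Directional polyA+ libraries came from RNA of RIN above 8, per the labels. The submitters' processing notes name, with no use given, the builds rn5 and mm10 and the tools edgeR, DESeq2, Bowtie and TopHat 1.4.0. The tables are titled with a mouse build, but their bins end as rat rn5 does. The deposited RPKM corresponded to whole read counts at 100% of the values, within 0.1 reads.

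Genes reaching 1 FPKM in 5 or more libraries were fitted together by limma 3.58.1 (R 4.3.3, with trend) on log2(FPKM + 1), as 5 group means, or as 6 means to compare the naive sets. Bins with a captured mean of 1 RPKM or more and 2 times input entered limma on log2(RPKM + 0.25), separately per time (350378 bins at 1 h, 85335 at 24 h). As an alternative, edgeR 4.0.16 on recovered reads, with normalization factors between libraries, called 0 to 38 bins per comparison. The RPKM fitted by limma were not rescaled. P-values were adjusted (Benjamini-Hochberg) over all genes or bins, with a threshold of 0.05, and the 36 pairs were tested with 100000 permutations. The pseudocount shrinks folds of low genes. Counting error in reads does not cover PCR duplicates.

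Named were all members, up to 4 called genes per vascular list and comparison, the 5 genes most like the members, and defining genes of other cell types. Of the list symbols 195 of 201 were found. Members and lists were chosen with earlier results of these data known. Promoters are from RefSeq GRCr8, matched by symbol for 6 of 9 members. The procedure was tested on simulated data. For threat 24 h against naive RNA, 55.0% of log2 changes of 0.25 and 91.0% of those of 0.5 were called. These changes were placed only in genes above a set mean level, so levels as low as that of Kdr were not covered. For captured bins in threat 1 h against naive 1 h, 77.5% of log2 changes of 1 were called. That simulation held 19158 bins, sampled at a looser filter of 1.5 times input, so this share need not hold for the full tested set. The simulated noise was independent between libraries and held no split of the naive set.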

Additional observations from a re-analysis of the deposited data

Results flagged for a closer look

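A library that stood apart from the rest of its group by Dixon's criterion was found in 4 of 63 member-by-group sets tested. Chance alone gives about 1 in 20, so this share is near that of chance. The members varied together, so the sets are not independent. Place 1 h replicate 3 was low for a pair of genes: Slc2a1 stood at 35.98 FPKM, against 44.49 to 47.45 FPKM in the other 5 libraries, and Pdgfrb at 2.99 FPKM, against 3.81 to 4.05 FPKM. Cldn5 stood high in place 24 h replicate 4, at 58.1 FPKM against 43.8 to 45.6 FPKM in the other 4. Flt1 stood low in threat 24 h replicate 5, at 5.07 FPKM against 6.41 to 6.92 FPKM in the other 5. No explanation was tested.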

How the results depend on the processing

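No member fold past the threshold changed sign. The number of calls stayed within 1.5 times under the alternatives run in threat 24 h against threat 1 h (6, and 4 under quantile normalization) and in naive 5 to 9 against 1 to 4 (3, and 2 with a filter of 5 FPKM, which left Pdgfrb untested). Calls in threat 24 h against naive numbered 3, and 1 with a fit of only the groups compared, 0 with naive 5 to 9 as naive, 4 with naive 1 to 4 or the replicate block (Flt1 added), and 2 to 4 with single libraries left out. Place 24 h against naive had 0, and 1 with array weights, 3 with the replicate block and 4 with naive 1 to 4. Place 24 h against place 1 h had 0, and 1 with only the groups compared, 5 with array weights, 1 with the replicate block and 0 to 3 with single libraries left out. Threat 1 h against naive had 1, and 0 under median-ratio scaling, only the groups compared, the replicate block, naive 1 to 4, or without threat 1 h replicates 4 and 7, 3 with naive 5 to 9, and 0 to 1 with single libraries left out. Place 1 h against naive had 0, and 1 with naive 5 to 9. Member bins called, 0 throughout, became 1 in threat 24 h against place 24 h with a pseudocount of 1 RPKM and with the replicate block (0 to 4 with single libraries left out, 4 without place 24 h replicate 1), 1 in threat 24 h against naive 24 h with the block, and 0 to 2 in threat 1 h against naive 1 h with single libraries left out (2 without threat 1 h replicate 3). Chosen after seeing the data, leaving out threat 1 h replicates 4 and 7 took the called vascular list genes to 0 of 1 in threat 1 h against naive. Causes were not tested. In their deviations from group means, same-numbered RNA libraries had r from -0.416 to 0.252 in threat 24 h against threat 1 h. Of these 6 pairs 3 lay above 0.1, and the median was 0.107, against -0.029 for other numbers. In threat 1 h against place 1 h r reached 0.587. So few pairs cannot show whether the numbers pair samples, which the labels do not state. The all-gene median moved by less than 0.1 under either rescaling. Tek, Pdgfrb and Kdr, at 1.67 to 4.53 FPKM, have folds shrunk most by the pseudocount.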
